A study of Mus musculus with 6 samples.

Results

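The transcripts described here are 10 genes chosen by name: the EMT factors Zeb1, Zeb2, Snai1 and Snai2, the intermediate filament gene Vim, and the epithelial genes Esrp1, Esrp2, Grhl2, Ovol1 and Epcam. They are 10 of 21959 genes in the count table, and 8 of the 10 passed the filter on low counts, while Snai1 and Snai2 did not. RNA of 2 mouse gastric adenocarcinoma cell lines, MPC and MPC-PTX, was sequenced as 3 libraries per line. Both lines carry the genotype CDH1-/-;Trp53-/-, and they were called MTC and MTC-R in the study. MPC came from gastric organoids of a C57BL/6J mouse with floxed Trp53 and Cdh1 alleles and Mist1-CreER, in which an inducible Cre under the Mist1 promoter deletes both genes, and the organoids were grown as a tumour under the skin of nude mice before the line was made. MPC received no drug (control), and MPC-PTX was raised from it by over 30 cycles of paclitaxel (PTX), a drug that stabilises microtubules. Each line was selected as 1 clone, so a difference between the lines cannot be told apart from a difference between 2 clones. The labels give 1 batch for all 6 libraries and do not say whether the 3 replicates of a line were separate cultures, so p-values measure only the spread between these libraries, which may be technical.

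In epithelial-mesenchymal transition (EMT), ZEB and SNAI family zinc-finger proteins bind E-box sequences in the promoters of epithelial genes and repress them. GRHL2 and OVOL1 are transcription factors of epithelia that restrain the ZEB genes, and ESRP1 and ESRP2 are RNA-binding proteins that keep the epithelial pattern of exon use in many transcripts. EpCAM is a cell surface adhesion protein of epithelia, and vimentin is the intermediate filament typical of mesenchymal cells.

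MPC-PTX cells had more Zeb1, Zeb2 and Vim RNA than MPC cells, and less Esrp1 and Epcam RNA. Zeb1 rose 2.06-fold, Zeb2 6.90-fold and Vim 8.61-fold, but all of them stayed at low levels in MPC-PTX. Esrp1 fell 1.89-fold and Epcam 1.50-fold. Per kb of exon, Epcam remained above 99.2% of tested genes in MPC-PTX, and Esrp1 above 64.7%. Snai1 and Snai2 were at or near 0 counts in all 6 libraries. No call was made for Esrp2, Grhl2 and Ovol1.

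The promoters of 5 genes are printed because they show the E-box motif in a member that fell (Epcam), in genes of the epithelial adhesion list (Ap1m2, Cldn4 and Lsr) and its absence from the window of a member that rose (Vim). Each run is 300 bases of RefSeq sequence (GRCm38.p6), 5′ to 3′ on the strand of the gene, from 250 bases before to 50 bases after the start. Capitals mark CACCTG or CAGGTG, which are the same E-box read on either strand. Ap1m2, Cldn4 and Lsr were picked for display after their values were seen.
Epcam, chr17:87635729-87636028, plus strand: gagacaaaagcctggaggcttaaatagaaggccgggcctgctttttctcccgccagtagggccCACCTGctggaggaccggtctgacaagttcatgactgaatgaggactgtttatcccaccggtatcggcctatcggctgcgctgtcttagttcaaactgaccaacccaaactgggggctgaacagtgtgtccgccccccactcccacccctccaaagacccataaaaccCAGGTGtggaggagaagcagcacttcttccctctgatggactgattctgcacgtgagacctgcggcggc
Ap1m2, chr9:21312284-21312583, minus strand: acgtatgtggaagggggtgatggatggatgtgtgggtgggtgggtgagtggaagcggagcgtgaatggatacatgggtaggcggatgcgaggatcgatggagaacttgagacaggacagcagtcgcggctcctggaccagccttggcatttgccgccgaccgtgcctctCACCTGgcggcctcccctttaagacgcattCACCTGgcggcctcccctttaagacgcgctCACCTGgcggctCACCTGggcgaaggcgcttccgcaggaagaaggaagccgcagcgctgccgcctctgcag
Cldn4, chr5:134946885-134947184, minus strand: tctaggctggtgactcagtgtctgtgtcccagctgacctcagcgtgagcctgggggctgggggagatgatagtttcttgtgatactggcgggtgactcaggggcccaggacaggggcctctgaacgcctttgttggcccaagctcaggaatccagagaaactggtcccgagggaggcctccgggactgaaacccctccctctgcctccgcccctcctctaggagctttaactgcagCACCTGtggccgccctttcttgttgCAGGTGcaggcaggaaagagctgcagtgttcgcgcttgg
Lsr, chr7:30973420-30973719, minus strand: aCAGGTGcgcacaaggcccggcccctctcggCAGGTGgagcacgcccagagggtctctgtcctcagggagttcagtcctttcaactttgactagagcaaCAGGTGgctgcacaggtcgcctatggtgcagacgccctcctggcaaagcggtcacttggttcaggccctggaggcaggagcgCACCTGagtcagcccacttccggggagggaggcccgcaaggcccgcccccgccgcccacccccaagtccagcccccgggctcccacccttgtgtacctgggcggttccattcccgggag
Vim, chr2:13574061-13574360, plus strand: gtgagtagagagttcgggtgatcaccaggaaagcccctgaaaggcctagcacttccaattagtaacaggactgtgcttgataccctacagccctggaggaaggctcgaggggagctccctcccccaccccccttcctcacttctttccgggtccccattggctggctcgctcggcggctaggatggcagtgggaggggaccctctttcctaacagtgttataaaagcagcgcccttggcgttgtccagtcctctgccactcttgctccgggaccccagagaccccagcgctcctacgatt
The first bases of the Epcam motifs lie at -187 and -19 from the start, and those of Cldn4 at -14 and 11. Ap1m2 holds 4 motifs, at -81, -51, -21 and -9, the last 3 within a short distance of the start. Lsr holds 4 motifs as well, at -249, -219, -151 and -69. Windows were at hand for 4 of the 10 genes: Epcam holds 2 motifs, Snai1 holds 1 at -126, and Vim and the 4 windows of Zeb2 hold none. A match is a description of the letters and not a measured binding site.

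Among all 27025 genes with a window, 6098 (22.6%) held this E-box, and among the tested genes with a window 2032 of 9414 (21.6%) did. A gene with several windows was counted as holding the motif if any of them did. Of the epithelial adhesion and membrane genes with a window, 19 of 22 (86.4%) held the motif. It was in 15 of 17 such genes (88.2%) that were lower in MPC-PTX, and in 4 of 5 (80.0%) that were not called. Among mesenchymal marker genes with a window 1 of 21 (4.76%) held it. Among other EMT transcription factors 0 of 13 did, and among other epithelial transcription factors 7 of 15 (46.7%). These shares by list were computed after the fold changes were known, and no test was made on them.

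The libraries held 16574580 to 23148182 counts, in which 13897 to 14295 genes had at least 1 count. The lines separated on the first principal component (76.6% of the variance), and the spread between replicates was wider in MPC (biological coefficient of variation 17.9%) than in MPC-PTX (3.01%). Deviations of MPC replicate 3 from the mean of its line correlated with transcript GC content at a Spearman rho of -0.63 over 10590 genes. In MPC replicates 1 and 2 rho was 0.52 and 0.39, and in MPC-PTX replicates 1, 2 and 3 it was 0.31, -0.01 and -0.32. Deviations within a line offset each other, so these signs cannot show which library stands apart. Members and list counts that change without MPC replicate 3 are given with and without it. Values of single genes from the lists are mostly given with it only. Cdh1, the knocked-out E-cadherin gene, had 2561, 2555 and 2812 counts in MPC and 3068, 3018 and 2217 in MPC-PTX, and Trp53 had 98, 63 and 120 against 142, 130 and 111. Gene totals carry no information on exons, so these counts do not check the deletions, and neither gene differed past the threshold (edgeR, Benjamini-Hochberg adjusted p = 0.864 and 0.228). Epithelial keratins such as Krt19 were abundant in both lines, while 4 of 19 gastric epithelial markers (Pgc, Tff1, Tff2 and Gkn2) were at 0 in every library.

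Levels are given as CPM, the counts scaled to a common library size after TMM normalization, and fold changes are MPC-PTX against MPC. A gene was called at an adjusted p below 0.05 over the 11795 genes tested. By that rule 29.7% of all tested genes were called, 14.1% higher and 15.6% lower in MPC-PTX, beside 3 members higher and 2 lower of 8 tested. With a log2 fold change beyond 1 as well, the 3 higher members remained and no member was lower, beside 3.54% and 4.2% of all tested genes. The study's methods used the same limit and an unadjusted p below 0.05, on a DESeq fit. With these cut-offs on the edgeR fit, the members called were the same and the background was 3.77% and 4.34%. The libraries of the lines did not overlap for 24.2% of all tested genes in the higher direction and 22.7% in the lower (46.9% in all), beside 3 and 4 members. In bulk RNA, fewer cells that express a gene and less RNA per cell cannot be told apart.

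**Figure D1:**
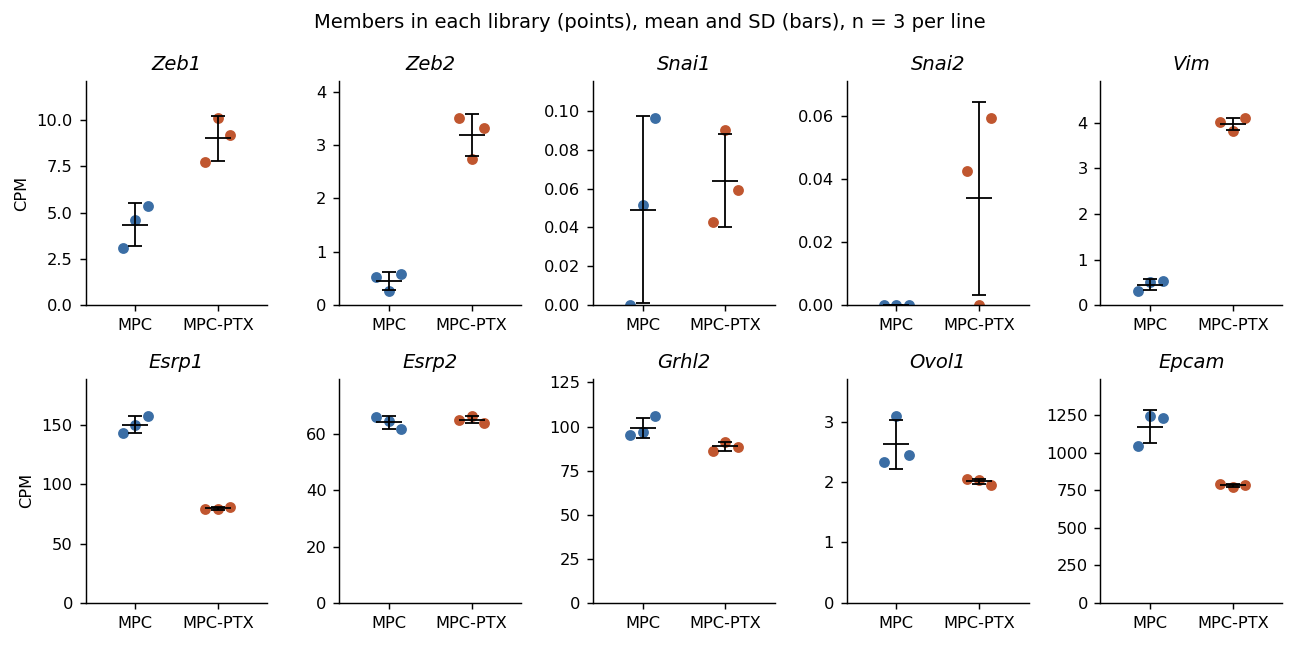
CPM of each member in the 3 MPC and 3 MPC-PTX libraries, with each library as a point and the mean and SD as bars; each panel has its own axis from 0. The lines do not overlap for Zeb1, Zeb2, Vim, Esrp1, Grhl2, Ovol1 and Epcam, and they overlap for Esrp2.

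Zeb1 (ENSMUSG00000024238, chromosome 18 of GRCm38, 5591860 to 5775467) encodes a repressor of epithelial genes. It measured 3.08, 4.59 and 5.38 CPM in the MPC libraries and 7.73, 10.1 and 9.20 CPM in the MPC-PTX libraries. Every MPC-PTX library was above every MPC library. The means of 4.35 ± 1.17 and 9.01 ± 1.20 CPM (SD, n = 3 each) differed by 1.04 on the log2 scale (SE 0.21), with an adjusted p of 0.0102 by the quasi-likelihood test of edgeR and the Benjamini-Hochberg method. Across all 14 alternatives the log2 fold change was 0.85 to 1.17, and the highest adjusted p was 0.0495.

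Zeb2 (ENSMUSG00000026872, chromosome 2, 44983632 to 45117395) encodes the paralog of ZEB1. It had 10, 5 and 12 counts in MPC and 82, 61 and 56 counts in MPC-PTX, so its MPC level rests on few reads. In CPM these were 0.531, 0.258 and 0.576 against 3.50, 2.75 and 3.33. The lowest MPC-PTX library was several times above the highest MPC library. The means of 0.455 ± 0.172 and 3.19 ± 0.394 CPM (SD, n = 3 each) differed by a log2 fold change of 2.79 (SE 0.29, adjusted p = 0.000585 in edgeR's test). An antisense gene, Zeb2os, overlaps exons of Zeb2 in the annotation, and whether the authors counted by strand is not given in the sources used here. Annotated genes on the opposite strand also overlap exons of Zeb1, Esrp1, Grhl2 and Ovol1, so the same limit holds for them.

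Vim (ENSMUSG00000026728, chromosome 2, 13573927 to 13582826) showed the largest log2 fold change of the members tested. It had 6, 10 and 11 counts in MPC and 94, 85 and 69 counts in MPC-PTX. The corresponding levels were 0.319, 0.515 and 0.528 CPM against 4.01, 3.83 and 4.10 CPM. MPC-PTX libraries lay close together and far above MPC. The means were 0.454 ± 0.117 and 3.98 ± 0.137 CPM (SD, n = 3 each), with a log2 fold change of 3.11 (SE 0.23, adjusted p = 0.000125 in edgeR's test). Vim filaments are among the most abundant proteins of mesenchymal cells, yet per kb of exon Vim was above only 13.3% of tested genes in MPC-PTX, and above 1.75% in MPC. Requiring 10 counts in every library removed Zeb2 and Vim from the test, and the count of higher members was then 1.

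Snai1 and Snai2 (SNAIL and SLUG), zinc-finger repressors that often act early in EMT, were barely counted. Snai1 (chromosome 2, 167538195 to 167542814) had 0, 1 and 2 counts in MPC and 1, 2 and 1 in MPC-PTX. Snai2 (chromosome 16, 14705852 to 14709385) had 0, 0 and 0 counts in MPC and 1, 0 and 1 in MPC-PTX. No fold is given, since both lines were at or near the floor of 3 counts per line, which equals 0.0501 CPM in MPC and 0.0487 CPM in MPC-PTX. Intervals and floors here cover counting error only, because amplified reads that carry no molecular identifier cannot be counted as separate molecules.

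Esrp1 (ENSMUSG00000040728, chromosome 4, 11331933 to 11386783), the epithelial splicing regulator, was the member that fell most. It measured 143, 150.1 and 157 CPM in MPC and 79.0, 78.8 and 80.9 CPM in MPC-PTX. The lines were far apart relative to the spread within each. The means of 150.2 ± 7.15 and 79.6 ± 1.18 CPM (SD, n = 3 each) gave a log2 fold change of -0.92 (SE 0.06, adjusted p = 0.000104 in edgeR's test). Its log2 fold change lay between -0.95 and -0.88 in all 14 alternatives.

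Esrp2 (ENSMUSG00000084128, chromosome 8, 106130319 to 106136974), the paralog with a largely shared splicing role, was not called. It measured 66.2, 64.8 and 61.7 CPM in MPC and 65.2, 66.4 and 63.8 CPM in MPC-PTX, and the lines overlapped. The log2 fold change was 0.02 (SE 0.07, 95% interval -0.13 to 0.17, adjusted p = 0.839 in edgeR's test). That interval bounds the difference but does not show that there is none. The exons of Esrp2 overlap those of Nfatc3 on the opposite strand, and Nfatc3 was higher in MPC-PTX (102.3 ± 19.1 and 171.6 ± 1.49 CPM, SD, n = 3 each), so without knowing the use of strand the Esrp2 counts are uncertain.

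Grhl2 (ENSMUSG00000022286, chromosome 15, 37233036 to 37363569), an activator of epithelial junction genes, was not called. It measured 95.1, 96.8 and 106 CPM in MPC and 86.2, 91.4 and 88.5 CPM in MPC-PTX. No MPC-PTX library reached the MPC range, as for 22.7% of all tested genes in this direction. The log2 fold change was -0.16 (SE 0.07, 95% interval -0.33 to 0.00, adjusted p = 0.125 in edgeR's test). Grhl2 passed the threshold after correction for GC content and length (-0.21, adjusted p = 0.0139) and without MPC replicate 3 (-0.17, adjusted p = 0.0322).

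Ovol1 (ENSMUSG00000024922, chromosome 19, 5549136 to 5560646), an epithelial zinc-finger repressor, was expressed at a low level in both lines. It measured 2.34, 3.09 and 2.45 CPM in MPC and 2.05, 2.03 and 1.96 CPM in MPC-PTX. The lines did not overlap, and MPC replicate 2 stood above the other 5 libraries. The log2 fold change of -0.38 (SE 0.18, 95% interval -0.81 to 0.05) had an adjusted p of 0.164 in edgeR's test.

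Epcam (ENSMUSG00000045394, chromosome 17, 87635979 to 87651129) was by far the most abundant member. It measured 1046, 1242 and 1228 CPM in MPC and 790.4, 769.8 and 783.9 CPM in MPC-PTX. The highest MPC-PTX library was below the lowest MPC library. The means of 1172 ± 109.5 and 781 ± 10.5 CPM (SD, n = 3 each) gave a log2 fold change of -0.59 (SE 0.08, adjusted p = 0.00192 in edgeR's test). An exact two-sided permutation test of 3 libraries against 3 cannot give a p below 0.1, the value it gave for every tested member except Esrp2 (0.6).

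**Figure D2:**
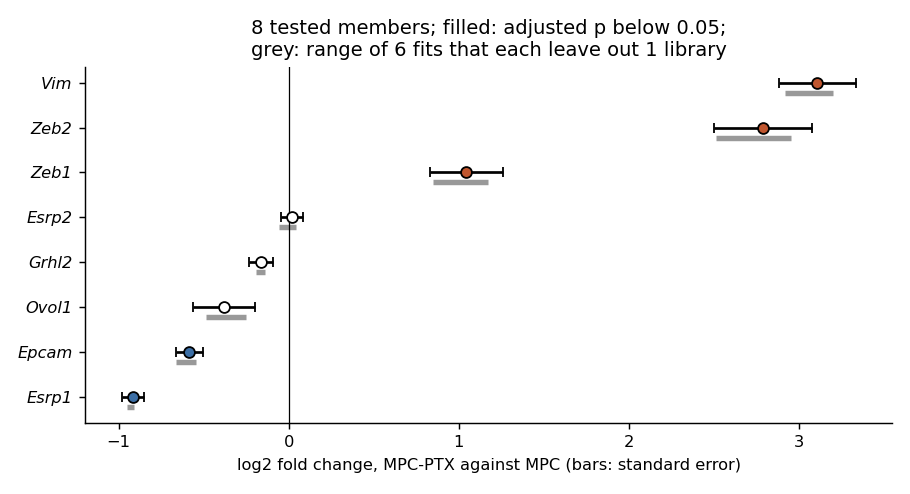
Log2 fold change (MPC-PTX against MPC) of the 8 tested members, with the standard error as black bars and the range over 6 fits that each leave out 1 library as grey bars. Filled points have an adjusted p below 0.05: Vim, Zeb2 and Zeb1 lie above 1, and Epcam and Esrp1 lie between -1 and 0.

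Per kb of exon, Epcam, Esrp1, Esrp2 and Grhl2 stood above the EMT factors and Vim in both lines. In MPC the levels ran from Epcam at 534 CPM per kb through Esrp1 (23.8), Esrp2 (14.8), Grhl2 (11.5) and Ovol1 (0.753) to Zeb1 (0.424) and Vim (0.0957), with no overlap between neighbours over the 3 libraries. Snai1 (0.0303) and Zeb2 (0.0228) overlapped below them. In MPC-PTX the order was different. Esrp2 (15.0) stood above Esrp1 (12.6), Zeb1 (0.878) and Vim (0.839) stood above Ovol1 (0.577), and Zeb2 (0.160) stood clear of Snai1 (0.0395). Zeb1 (0.753 to 0.983) and Vim (0.808 to 0.864) overlapped in MPC-PTX, and Zeb2 stayed below the other tested members. The annotated exons of Zeb2 add up to 19942 bases, which lowers its level per kb.

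As ranks, Epcam was above 99.5% of tested genes in MPC and 99.2% in MPC-PTX, and Esrp1 above 79.7% and 64.7%. Grhl2 was above 62.9% and 59.4%, and Esrp2 above 69.4% and 69.3%. Zeb1 moved from 8.23% to 13.6%, and Zeb2 from 0.212% to 3.48%. Ovol1, at 12.6% and 10.3%, ranked near Zeb1 rather than near the other epithelial members.

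The share of counts held by each paralog is given for the ESRP, ZEB, GRHL and OVOL families. Esrp1 held 70.0% ± 1.74 of the Esrp1 and Esrp2 counts in MPC and 55.0% ± 0.837 in MPC-PTX (SD, n = 3 each). Zeb2 held 9.90% ± 4.70 of the Zeb1 and Zeb2 counts in MPC and 26.4% ± 4.89 in MPC-PTX. In the ESRP and ZEB families the libraries of the 2 lines did not overlap, and an exact two-sided permutation test gave 0.1, the smallest p that 3 against 3 allows. In the GRHL family, the Grhl2 share was 60.3% ± 2.32 in MPC and 69.1% ± 0.408 in MPC-PTX. The Grhl1 share was 39.1% ± 2.43 and 25.2% ± 0.657, and the Grhl3 share 0.567% ± 0.152 and 5.79% ± 0.729 (exact permutation p = 0.1 each). Grhl1 itself measured 64.6 ± 8.78 and 32.3 ± 1.62 CPM (adjusted p = 0.000848 in edgeR's test), and Grhl3 had a log2 fold change of 3.01 (SE 0.19, adjusted p = 7.08e-05 in edgeR's test). Ovol1 held 18.9% ± 3.97 of the Ovol1 and Ovol2 counts in MPC and 18.0% ± 1.60 in MPC-PTX, with overlapping libraries (exact permutation p = 0.8). These shares were chosen after the values were seen.

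**Figure D3:**
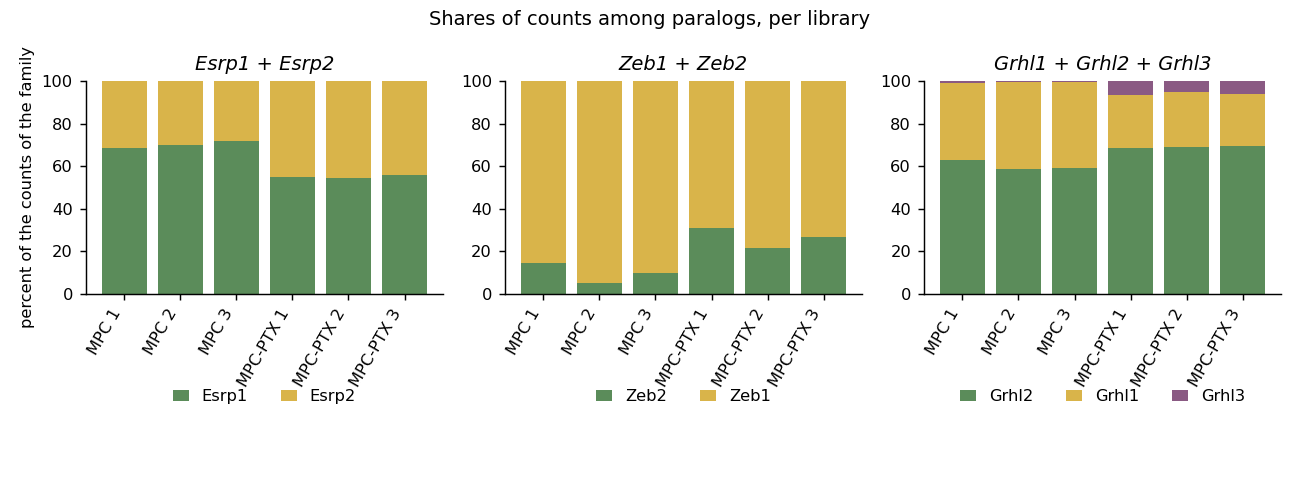
Percent of the counts of a paralog family held by each gene, per library, for the ESRP, ZEB and GRHL families. Esrp1 takes 68.4% to 71.8% of the ESRP counts in MPC and 54.3% to 55.9% in MPC-PTX, and Grhl3 takes under 1% of the GRHL counts in MPC and 4.98% to 6.39% in MPC-PTX.

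Other EMT transcription factors moved in both directions. Of 21 listed genes 14 were tested, 4 were higher and 4 lower, and the median log2 fold change was 0.11 (0.04 over all tested genes). Over all tested genes, 14.1% were called higher and 15.6% lower. Snai3 (log2 fold change 0.49), Foxc1 (0.50), Tcf4 (0.94) and the HLH inhibitor Id1 (0.38) were higher. Foxq1 (-0.65), Tcf3 (-0.55), Sox4 (-0.45) and Id2 (-0.33) were lower. Of 6 fits that each leave out 1 library, Snai3 and Tcf4 passed the threshold in 1, and Id1 and Sox4 in 3. Foxc1 and Id2 passed it in 5, and Foxq1 and Tcf3 in 6. The count higher was 7 without MPC replicate 3, beside 3020 of 11896 genes tested in that fit. It was 0, 1 and 2 without MPC-PTX replicate 1, 2 and 3, beside 803 of 11905, 827 of 11908 and 840 of 11962 genes. The count lower was 2 without MPC-PTX replicate 2, beside 1077 of 11908 genes. Twist1 had 0 counts in every library. Twist2, a bHLH factor of EMT, had 0, 0 and 0 counts in MPC and 8, 7 and 7 in MPC-PTX, at least 7.12-fold higher against the floor of 3 counts over the MPC line, and the exact 95% interval of the ratio of the 2 sums starts at 5.32. It did not pass the filter, and in a fit without it the adjusted p was 0.00836 in edgeR's test. Twist2 was picked after its values were seen.

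Among other epithelial transcription factors 18 of 24 were tested, 3 were higher and 6 lower, beside 14.1% and 15.6% of all tested genes. The median log2 fold change was -0.19. Besides Grhl3, Trp63 (1.81), a factor of basal and squamous epithelia, and Klf4 (1.70) were higher. Hnf4a (-6.11), Foxa3 (-3.09) and Gata6 (-2.65), factors of gut endoderm, were lower, as were Grhl1 and Elf3 (-0.80). Few counts underlie Trp63 (14, 8 and 15) and Grhl3 (20, 19 and 15) in MPC, and Foxa3 (15, 8 and 4) in MPC-PTX. Hnf4a was 65.6 ± 14.2 CPM in MPC and 0.944 ± 0.0844 CPM in MPC-PTX (SD, n = 3 each). Without MPC replicate 3 the count lower was 10, beside 3227 of 11896 genes tested in that fit.

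The list of epithelial adhesion and membrane genes moved in the direction of Epcam. All 38 genes were tested, and 26 were lower and 0 higher, beside 15.6% and 14.1% of all tested genes. A negative log2 fold change was seen in 36, against 44.8% of all tested genes. The median was -0.43. Ap1m2 (-1.88), an adaptor subunit of basolateral sorting, S100a14 (-1.70), the tight junction gene Cldn4 (-1.13) and Krt8 (-1.02) fell beyond a log2 fold change of -1. Krt19 (-0.97), the most abundant gene of the list, measured 3019 ± 257 CPM in MPC and 1538 ± 18.8 CPM in MPC-PTX (SD, n = 3 each). Lsr, whose promoter is printed above, was not called (-0.16). The count lower ranged from 17 without MPC-PTX replicate 2 to 33 without MPC replicate 3, where 1 gene was called higher. Over all tested genes, these fits called 1077 of 11908 and 3227 of 11896 lower.

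Mesenchymal markers did not move together with Vim. Of 32 listed genes 19 were tested, 6 were higher and 7 lower, beside 14.1% and 15.6% of all tested genes. The median log2 fold change was 0.03. Nes (2.18), an intermediate filament like Vim, Lgals1 (1.98), Col5a1 (1.25) and Sparc (1.21) were higher by a log2 fold change above 1. Nt5e (-3.06), Axl (-2.11) and Tpm2 (-1.77) were among those lower beyond -1. Nes was 0.222 ± 0.0830 and 1.02 ± 0.252 CPM and Nt5e 0.840 ± 0.268 and 0.0925 ± 0.0344 CPM (SD, n = 3 each), so both rest on few counts. Fn1, the fibronectin gene and the most abundant of the list, rose from 2304 ± 139 to 3141 ± 15.7 CPM (SD, n = 3 each), and Tpm1 fell by 0.28 on the log2 scale. N-cadherin (Cdh2) had at most 7 counts in a library and Acta2 at most 14, and neither passed the filter. The count higher was 9 without MPC replicate 3, beside 3020 of 11896 genes tested in that fit.

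**Figure D4:**
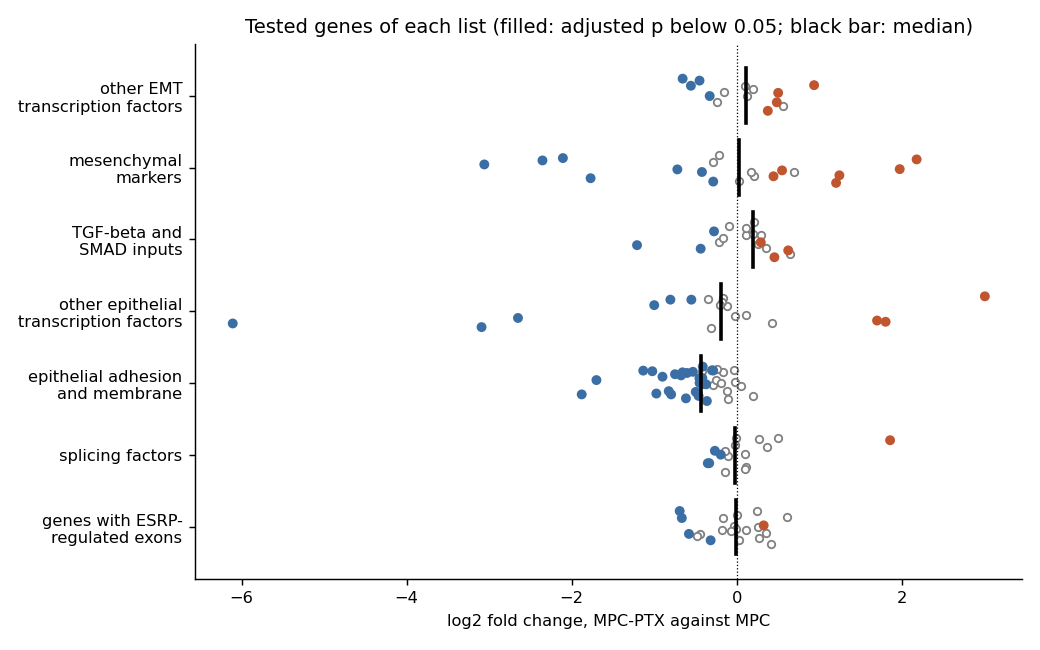
Log2 fold change (MPC-PTX against MPC) of the tested genes of 7 lists, 1 point per gene, filled where the adjusted p is below 0.05, with the median as a black bar. The epithelial adhesion list has its median at -0.43 with 26 genes lower, while the mesenchymal list spreads to both sides of 0.

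Of 18 listed splicing factors of the epithelial and mesenchymal programs 16 were tested, and 1 was higher and 4 lower, a share near the 29.7% called over all tested genes. Nova1 (1.86), a splicing factor best known in neurons, was higher, and Rbm47 (-0.33), Ptbp1 (-0.35), Srsf3 (-0.19) and Hnrnpa1 (-0.26) were lower. The median was -0.02. Nova1 and Rbm47 passed the threshold in all 6 fits without 1 library, and Ptbp1, Srsf3 and Hnrnpa1 in 2. Without MPC replicate 3 the counts of this list were 8 higher and 6 lower, beside 3020 and 3227 of 11896 tested genes. Without MPC replicate 2 or any 1 MPC-PTX library 1 gene was lower. Over all genes, those fits called 1077 to 1222 lower, of 11905 to 11985 tested. Of 21 genes with exons known to be regulated by ESRP proteins, all were tested, and 1 was higher and 4 lower, with a median of -0.01. Over all tested genes, 14.1% were called higher and 15.6% lower. Nf2 (0.33) was higher, and Ctnnd1 (-0.69), Tcf7l2 (-0.66), Enah (-0.58) and Numb (-0.32) were lower. Enah and Numb passed the threshold in 2 of the 6 fits without 1 library, and Nf2, Ctnnd1 and Tcf7l2 in all 6. Cd44, a gene whose variable exons are ESRP targets, measured 380 ± 25.4 CPM in MPC and 387 ± 6.45 CPM in MPC-PTX. Without MPC replicate 3 the counts of genes with ESRP-regulated exons were 6 higher and 7 lower. Without MPC replicate 1 the count lower was 7, beside 2119 of 11998 tested genes. Without MPC replicate 2 or any 1 MPC-PTX library it was 2. Gene counts hold no information on exon use, so the splicing output of the Esrp1 difference was not analysed here.

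Upstream of the EMT factors, TGF-beta and SMAD genes showed no common direction. Of 20 listed genes 17 were tested, 3 were higher and 3 lower, and the median was 0.20. Over all tested genes, 14.1% were called higher and 15.6% lower. The ligands Tgfb1 (0.46), Tgfb3 (0.29) and Bmp4 (0.63) were higher. The latent TGF-beta binding protein Ltbp1 (-1.21), the receptor Acvr1b (-0.44) and the transducer Smad3 (-0.27) were lower. Tgfb3 and Smad3 passed the threshold in 2 of 6 fits without 1 library, Tgfb1 and Acvr1b in 4, Bmp4 in 5 and Ltbp1 in 6. The count higher was 9 without MPC replicate 3 and 0 without MPC-PTX replicate 2, beside 3020 of 11896 and 827 of 11908 tested genes. The count lower was 1 without MPC-PTX replicate 1 or 2, beside 1122 of 11905 and 1077 of 11908.

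Markers of other cells were low in both lines, though their sums stood above Zeb2 and Vim, and their part in these results was not tested. Summed over 12 fibroblast markers the level was 9.93 to 11.1 CPM in MPC and 8.84 to 10.0 CPM in MPC-PTX, and 8 of the 12 had at most 10 counts in any library. Only 2 fibroblast markers were tested, and Col1a1 was lower (-0.80). Summed leukocyte markers were 12.0 to 13.6 and 10.5 to 11.5 CPM, and summed endothelial markers 6.80 to 8.60 and 6.79 to 7.66 CPM, with 0 genes called in either list by edgeR or DESeq2. Cd68, a macrophage marker, made up most of the leukocyte sum (11.5 ± 0.932 and 9.47 ± 0.526 CPM, SD, n = 3 each), and it was the single gene of both lists with an unadjusted p below 0.05 in edgeR's test. Of 19 gastric epithelial markers 11 were tested, 2 were higher and 8 lower, beside 14.1% and 15.6% of all tested genes. Ctse (-7.54), the gastric protease cathepsin E, Anxa10 (-8.62), Gkn3 (-3.08) and Krt8 were among those lower. Sox2 (0.45) and Bhlha15 (1.68), the gene that encodes MIST1, were higher, and Bhlha15 rests on few counts (0.272 CPM in MPC). The count higher was 1 without MPC-PTX replicate 1, beside 803 of 11905 genes tested in that fit.

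The genes around Esrp1 were lower as well. Over all tested genes, for comparison with the counts below, 55.2% had a positive log2 fold change and 44.8% a negative one. Of all tested genes 14.1% were called higher and 15.6% lower. All 14 tested genes that start within 1 Mb of Esrp1 had a negative log2 fold change, 8 were called lower, and their median was -0.63. The nearest were Dpy19l4 (-0.53, not called), Virma (-0.61) and Ints8 (-0.65), and Cdh17, an intestinal cadherin gene, was lowest at -2.44. Within 10 Mb 38 of 41 genes were negative, 28 were lower and 1 was higher, and the median was -0.75. The part of the region in the Esrp1 difference was not tested. All 6 tested neighbours of Zeb1 in that window were above 0 on the log2 scale, 1 was called higher, and the median was 0.26, with 28 of 40 positive within 10 Mb. Gtdc1, the single tested gene within 1 Mb of Zeb2, was called higher at 0.32. Within 1 Mb of Vim 5 of 8 genes were positive (median 0.05), and near Epcam 9 of 14 were (median 0.13). Among the genes near Epcam were Calm2 (-0.24) and Msh6 (0.14). Near Esrp2, 43 of 54 genes had a positive log2 fold change (median 0.17), and 13 were called higher and 1 lower. Within 10 Mb of Esrp2 96 of 113 were positive, 32 were higher and 3 lower, and the median was 0.23. The part of this region in the Esrp2 value was not tested. Near Grhl2 6 of 8 genes were positive (median 0.34), and 3 were called higher and 0 lower.

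**Figure D5:**
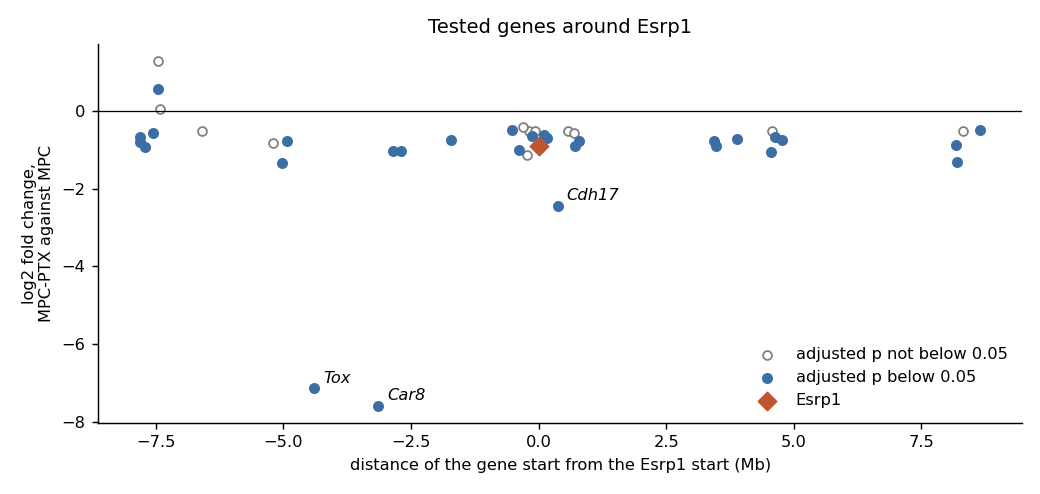
Log2 fold change (MPC-PTX against MPC) of tested genes by the distance of their start from that of Esrp1, in Mb, with Esrp1 as a diamond and genes with an adjusted p below 0.05 filled. Most points lie near the level of Esrp1 (-0.92), below 0 on both sides. Fitted values of Car8 and Tox, which were at or near 0 counts in MPC-PTX, depend on the prior count and are not bounds.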

How the data were processed

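The labels and the study's methods describe poly-A selected libraries, filtered with fastp 0.22.0 and mapped with HISAT2. The genome release, annotation, counting tool and use of strand are not given in the sources used here. The authors deposited raw read counts per gene and library, not normalized and not pooled. The quasi-likelihood test of edgeR 4.0.16 in R 4.3.3 (glmQLFit with robust estimation, glmQLFTest) was run on all 6 libraries, using TMM factors and the genes kept by filterByExpr for the 2 lines at a minimum count of 10. This left 11795 genes, and the Benjamini-Hochberg adjustment was made over all of them. The SE is the log2 fold change divided by the square root of F. Total counts were 16574580 to 23148182 per library.

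The 10 genes and the lists were chosen with earlier results of these data known. Genes were named from a list where they passed the threshold and differed by over 1 on the log2 scale (at most 4 in each direction), or had the highest CPM (at most 2 genes). Where a count was 5 or fewer its genes are named too, and these and the others named beyond the rule (Grhl1, Elf3, Cd44, Lsr and Cdh17) were chosen after their values were seen. Some genes that meet the rule are not reported here. Positions and exon lengths came from GENCODE M21 (GRCm38) by Ensembl identifier, 2 list genes were matched by identifier, and promoter windows came from RefSeq. Whether replicates 1, 2 and 3 of the lines are paired by number is not known (correlation of deviations 0.15, -0.02 and 0.17). Alternatives were DESeq2 1.42.0, its size factors, library size alone, no filter, 10 counts in every library, the replicate block, a GC content and length correction (loess span 0.3), both together, and each library left out. The scripts were tested on simulated data.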

Additional observations from a re-analysis of the deposited data

How the results depend on the processing

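Zeb1, Zeb2, Vim, Esrp1 and Epcam kept their direction and stayed past the threshold in every alternative that gave a value. Zeb2 and Vim had no value with 10 counts in every library, since that filter removed them, and the members called higher then numbered 1. Members called lower numbered 2 to 3 over the fits that leave out 1 library. Grhl2 passed the threshold with the GC content and length correction (-0.21), with that correction and the replicate block (-0.21), and without MPC replicate 3, and leaving out 1 library gave -0.19 to -0.14. The fits that leave out 1 library gave 0 to 7 other EMT transcription factors higher and 2 to 5 lower, 6 to 10 other epithelial transcription factors lower, 0 to 1 epithelial adhesion genes higher and 17 to 33 lower. They gave 6 to 9 mesenchymal markers higher, 1 to 8 splicing factors higher and 1 to 6 lower, 1 to 6 genes with ESRP-regulated exons higher and 2 to 7 lower, 0 to 9 TGF-beta and SMAD genes higher and 1 to 3 lower, 0 to 1 leukocyte markers lower and 1 to 2 gastric epithelial markers higher. With 10 counts in every library, 2 other EMT transcription factors and 1 gastric epithelial marker were higher. Correlations of deviations do not settle whether the replicate numbers pair the samples. MPC replicates 1 and 3 correlated best with their own number in MPC-PTX (0.15 and 0.17). MPC replicate 2 correlated best with MPC-PTX replicate 1 (0.15). The fit with the replicate block gave 3 members higher and 2 lower as before, with 1787 genes higher and 1717 lower over all genes. It gave 2 splicing factors and 3 genes with ESRP-regulated exons higher. Splicing factors higher also numbered 2 with DESeq2 and with the GC content and length correction, and those lower numbered 2 with library size alone and 7 with the correction and the block. With the correction, alone or with the block, 3 genes with ESRP-regulated exons were higher and 7 lower, and 5 TGF-beta and SMAD genes were higher. Hnrnph1 and Ktn1, not called and negative in the test as reported, were called higher without MPC replicate 3 (0.30 and 0.40), and leaving out 1 library gave -0.24 to 0.30 and -0.34 to 0.40. Over all tested genes, 1668 were higher and 1841 lower, and the fits without 1 library gave 803 to 3020 higher and 1077 to 3227 lower, the most without MPC replicate 3. The cause of these changes was not tested. Low counts limit Zeb2 and Vim in MPC, and Snai1 and Snai2 in both lines.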
